A study of Mus musculus with 6 samples.

Results

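Among the 24972 genes listed for endothelial isolates of the newborn mouse lung, 10 encode the TGF-β ligands (*Tgfb1*, *Tgfb2* and *Tgfb3*), their receptors (*Tgfbr1*, *Tgfbr2* and *Tgfbr3*) and the latent TGF-β binding proteins (*Ltbp1*, *Ltbp2*, *Ltbp3* and *Ltbp4*). They were chosen by gene family, with earlier results of these data known, and all 10 were expressed well enough to be tested. The isolates (iLECs) were CD31+ cells taken with antibody-coated magnetic beads from lungs of pups at P7. The labels give the strain as C57BL/6, whereas the study's methods give a mixed background of CD1 and C57BL/6. By the labels, control pups were *Atp6ap2* fl/Y without Cre, and *Atp6ap2* iECKO pups were *Atp6ap2* fl/Y carrying Cdh5-CreERT2, a tamoxifen-inducible Cre driven by the promoter of the endothelial cadherin gene *Cdh5*. Both groups carried the floxed allele, and both received 100 µg of tamoxifen daily from P1 to P3. *Atp6ap2* encodes the prorenin receptor, an accessory protein of the vacuolar proton pump. Each group had 3 RNA-seq libraries, and the comparison asked how transcript levels in the isolates differed after endothelial deletion. The labels do not say how many pups a library held, so the tests measure the spread between these libraries.

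TGF-β is secreted as a latent dimer, held inactive by its own propeptide and tethered through that propeptide to a latent TGF-β binding protein (LTBP) in the extracellular matrix. Integrins, proteases and thrombospondin release or activate it, after which it binds the type II receptor TGFBR2, which recruits and phosphorylates the type I receptor TGFBR1 and through it SMAD2 and SMAD3. In the lung the pathway is known for its part in vessel wall, alveolar septum and elastic fibre formation, and endothelial cells also signal through a further type I receptor, ALK1 (*Acvrl1*).

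Promoter sequence is shown for 2 ligands, since *Tgfb2* fell in iECKO iLECs, while *Tgfb1*, the most abundant ligand, did not pass the test. Each run holds the 250 bases before the transcription start in RefSeq (build GRCm38.p6), written 5′ to 3′ on the strand of the gene. Capitals mark the GC box letters GGGCGG, or CCGCCC on the opposite strand, and the TATA box letters TATAAA. The *Tgfb1* window lies at chr7:25686752-25687001 on the plus strand, and the *Tgfb2* window at chr1:186705990-186706239 on the minus strand.
Tgfb1: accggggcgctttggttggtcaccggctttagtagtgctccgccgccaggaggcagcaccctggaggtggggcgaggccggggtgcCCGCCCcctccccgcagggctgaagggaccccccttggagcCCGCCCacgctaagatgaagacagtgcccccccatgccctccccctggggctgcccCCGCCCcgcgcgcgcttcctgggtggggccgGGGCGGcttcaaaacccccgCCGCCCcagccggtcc
Tgfb2: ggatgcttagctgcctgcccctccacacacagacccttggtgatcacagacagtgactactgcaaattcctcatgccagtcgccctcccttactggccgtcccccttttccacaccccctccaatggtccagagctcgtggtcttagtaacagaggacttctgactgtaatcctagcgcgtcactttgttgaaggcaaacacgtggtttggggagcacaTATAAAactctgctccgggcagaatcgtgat
The *Tgfb1* window held 5 GC boxes, no TATA box and 21 CpG dinucleotides, and its GC content was 75.2%. The *Tgfb2* window held 1 TATA box, no GC box and 8 CpG dinucleotides, with a GC content of 53.6%, close to the median of 52.0% over 27025 promoters. Of those promoters, 33.0% held a GC box and 13.0% a TATA box on either strand. Windows were at hand for 8 of the 10 genes, all but *Tgfb3* and *Tgfbr3*. *Ltbp2*, the gene with the largest fitted fall of the 10, held 2 GC boxes and no TATA box in its window. Neither the AP-1 letters TGANTCA, in 6.85% of all promoters, nor the palindrome GTCTAGAC that SMAD3 and SMAD4 can bind, in 0.174%, were found in these 2 windows.

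Several properties of the libraries touch the results. *Atp6ap2* itself was lower in every iECKO library, at 4219.8, 2336 and 1982, than in the controls, at 7490.2, 5815 and 5681, and fell by 1.22 on the log2 scale (SE 0.26, limma adjusted p = 0.0306). Values here are the authors' normalized read estimates, and the libraries summed to between 26243878 and 28725799. *Xist*, the noncoding RNA that coats the inactive X chromosome in female cells, was high in 4 of the 6 libraries although the labels give every pup as fl/Y. The study itself used female fl/fl as well as male fl/Y pups for both groups. It stood at 37704 and 44402 in control replicates 1 and 2 and at 39442 and 47487 in iECKO replicates 1 and 3, but at 31.7 in control replicate 3 and 19.3 in iECKO replicate 2. The results were therefore also computed with *Xist* presence as a covariate, within the 4 libraries with *Xist*, and between the 2 libraries without it. The summed value of the 12 endothelial markers overlapped between the groups, at 311851 to 407564 in control and 329559 to 383415 in iECKO libraries. Of the 12, only the angiopoietin receptor gene *Tek* passed the test, and it was lower (log2 fold change -0.53, limma adjusted p = 0.0292). *Emcn* and *Egfl7* lay higher in every iECKO library than in any control, but did not pass (limma adjusted p = 0.193 and 0.254).

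Of the 10 genes, 3 fell in iECKO iLECs and none rose: *Ltbp2*, *Tgfb3* and *Tgfb2*. Over all 14456 genes tested, 4.97% were called lower and 3.28% higher (limma on log2 values, adjusted p below 0.05). At an unadjusted p below 0.05, 4 of the 10 were lower and 0 higher, beside 12.3% and 11.6% of all genes tested. All 3 iECKO libraries lay below all 3 controls for 4 genes, the fourth being *Ltbp3*, and above them for none. Such complete separation was found in the lower direction in 15.0% of all genes and in the higher direction in 14.7%. The median log2 fold change of the 10 genes was -0.27, beside 0.00 over all genes tested.

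**Figure D1:**
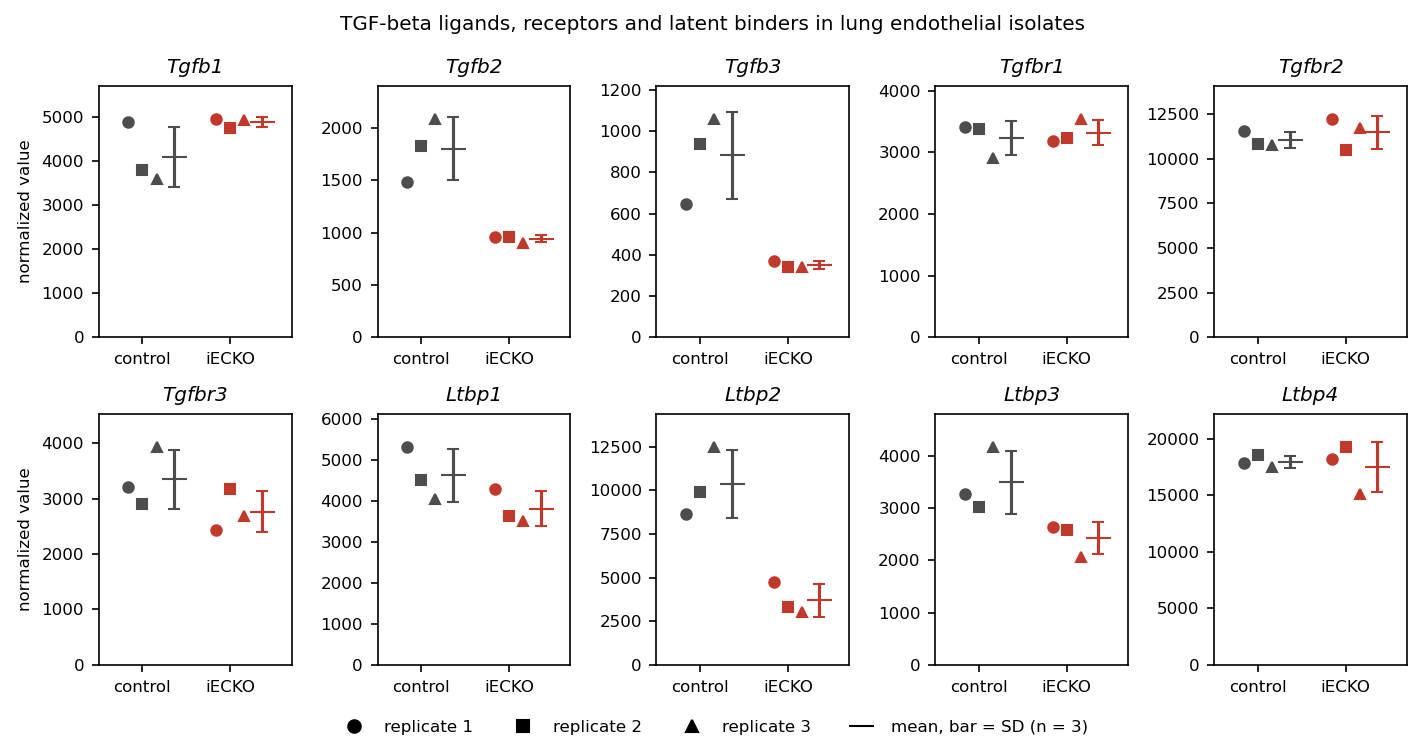
Normalized value of each of the 10 genes (vertical axes, starting at 0) in the control and *Atp6ap2* iECKO libraries, with a symbol for each replicate, the group mean as a horizontal line and its SD as a bar (n = 3). The groups do not overlap for *Tgfb2*, *Tgfb3*, *Ltbp2* and *Ltbp3*, and overlap in the other 6 panels.

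Of the ligands, *Tgfb2* and *Tgfb3* fell and *Tgfb1* did not pass the test. *Tgfb1*, on chromosome 7 (25687002 to 25705077, GRCm38), encodes the isoform that most cells secrete. Its values were 4882, 3800.4 and 3606 in controls and 4967, 4765 and 4949 in iECKO iLECs. Control replicate 1 lay among the iECKO libraries, and the other two controls lay below them. The means were 4096 ± 688 and 4894 ± 112 (SD, n = 3), a log2 fold change of 0.27 (SE 0.12, 95% interval -0.00 to 0.54) that did not pass the limma test (adjusted p = 0.210). *Tgfb1* passed in 1 of 17 alternatives, without control replicate 1, where the log2 fold change was 0.40 (limma adjusted p = 0.0290). Without control replicate 2 or 3 the log2 fold change was 0.22 or 0.18 (limma adjusted p = 0.401 and 0.415). Over all alternatives the limma adjusted p ranged from 0.0290 to 0.534. Platelets store TGF-β1, and the summed platelet markers in control replicate 1 stood at 226% of the control mean, against 38.5% and 35.9% in the other two controls and 42.8% to 179% in iECKO libraries. Their part in the *Tgfb1* values was not tested.

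*Tgfb2*, on chromosome 1 (186622792 to 186705989), encodes the isoform that binds TGFBR2 poorly without the co-receptor betaglycan and that is needed for heart and vessel development. Its values were 1486, 1826 and 2087 in controls and 961, 957 and 902 in iECKO iLECs. Every iECKO library lay below every control, and the iECKO libraries lay close to each other. The means were 1799.8 ± 302 and 940.1 ± 33.0 (SD, n = 3). *Tgfb2* fell by 0.92 on the log2 scale (SE 0.13, 95% interval -1.22 to -0.63, limma adjusted p = 0.0104), a fitted level of 52.7% of control. An antisense model, *Gm29491*, covers 2.38% of its exon bases, and the library kit did not mark strand.

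*Tgfb3*, on chromosome 12 (86056745 to 86079041), encodes the isoform known for its roles in palate fusion and lung development. It was measured at 648, 939 and 1060.2 in controls and at 371, 338 and 339.9 in iECKO iLECs. The groups were again fully apart, and the lowest control was control replicate 1. The means were 883 ± 212 and 349.5 ± 18.2 (SD, n = 3). *Tgfb3* fell by 1.30 on the log2 scale (SE 0.18, 95% interval -1.72 to -0.89, limma adjusted p = 0.0104), a fitted level of 40.5% of control. Models on the opposite strand, *Gm37804* and *Gm48008*, cover 4.82% and 7.60% of its exon bases.

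The receptors did not pass the test in either direction. *Tgfbr2*, the ligand-binding type II kinase, had values of 11566, 10803 and 10788 in controls and 12239, 10463 and 11721 in iECKO iLECs. The highest and the lowest value were both from iECKO libraries, and the log2 fold change was 0.05 (SE 0.09, 95% interval -0.15 to 0.26, limma adjusted p = 0.780). *Tgfbr1*, the type I kinase ALK5, had values of 3408, 3372 and 2909.6 in controls and 3175, 3235 and 3544 in iECKO iLECs. These also overlapped, with a log2 fold change of 0.04 (SE 0.09, 95% interval -0.17 to 0.25, limma adjusted p = 0.832), whose sign turned when control replicate 3 (-0.03) or iECKO replicate 3 (-0.01) was left out and in the libraries with *Xist* (-0.02). *Tgfbr3*, which encodes betaglycan, the co-receptor that presents TGF-β2, had values of 3201, 2903 and 3938 in controls and 2435, 3168 and 2683 in iECKO iLECs. One iECKO library reached into the control range, and the log2 fold change was -0.27 (SE 0.14, 95% interval -0.59 to 0.04, limma adjusted p = 0.276). A model on the same strand, *Gm43422*, covers 4.88% of its exon bases.

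**Figure D2:**
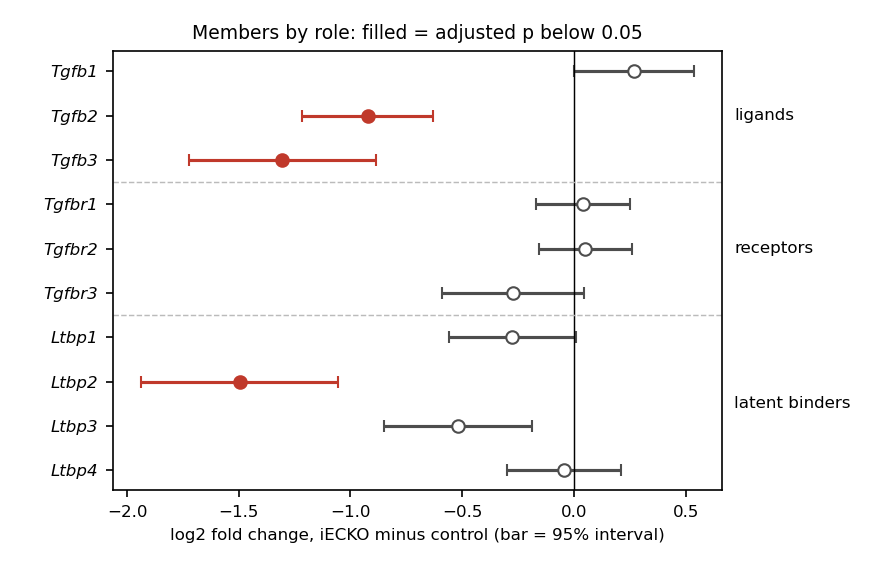
Log2 fold change of each gene, iECKO minus control (horizontal axis), grouped by role, with bars for the 95% interval and filled points for a limma adjusted p below 0.05. The filled points are *Tgfb2* at -0.92, *Tgfb3* at -1.30 and *Ltbp2* at -1.50, while the receptors lie between -0.27 and 0.05.

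The latent binders held both the largest fitted fall and, per kb of exon, the most abundant transcript of the 10 genes. *Ltbp2*, on chromosome 12 (84783212 to 84876532), encodes the family member that does not bind latent TGF-β and instead associates with fibrillin-1 and fibulin-5 in elastic fibres. Its values were 8670.5, 9889 and 12509 in controls and 4766, 3327 and 3011 in iECKO iLECs. The lowest control lay well above the highest iECKO library, which was replicate 1. The means were 10356 ± 1962 and 3701 ± 935 (SD, n = 3). *Ltbp2* fell by 1.50 on the log2 scale (SE 0.19, 95% interval -1.94 to -1.05, limma adjusted p = 0.00916), a fitted level of 35.4% of control. The antisense gene *D030025P21Rik* covers 11.3% of its exon bases, so reads of the 2 cannot be told apart there.

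*Ltbp3*, on chromosome 19 (5740904 to 5758532), encodes a binder of all TGF-β isoforms known from skeletal and dental growth. Its values were 3262, 3029 and 4176 in controls and 2631, 2579 and 2068 in iECKO iLECs. The groups did not overlap, but the distance between the highest iECKO and the lowest control library was small. The log2 fold change was -0.52 (SE 0.14, 95% interval -0.85 to -0.19), and its adjusted p of 0.0659 (limma) missed the threshold.

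*Ltbp1*, which encodes a carrier of latent TGF-β in the matrix, was measured at 5321, 4494 and 4038 in controls and at 4292, 3616 and 3508 in iECKO iLECs. One iECKO library lay above the lowest control, and the log2 fold change was -0.28 (SE 0.12, 95% interval -0.56 to 0.01, limma adjusted p = 0.224). *Ltbp4*, which encodes a binder of latent TGF-β1 and an organizer of elastic fibres in the lung, was measured at 17888, 18568 and 17532 in controls and at 18221, 19335 and 15091 in iECKO iLECs. The groups overlapped, with a log2 fold change of -0.04 (SE 0.11, 95% interval -0.30 to 0.21, limma adjusted p = 0.852). It was 0.06 when iECKO replicate 3, the lowest library, was left out.

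The calls for *Tgfb2*, *Tgfb3* and *Ltbp2* held when each library was left out in turn, with log2 fold changes of -1.05 to -0.81, -1.51 to -1.16 and -1.69 to -1.35. They also held with *Xist* presence as a covariate. Within the 2 control and 2 iECKO libraries with *Xist*, none of the 3 passed, at -0.82 for *Tgfb2* (limma adjusted p = 0.126), -1.13 for *Tgfb3* (limma adjusted p = 0.137) and -1.29 for *Ltbp2* (limma adjusted p = 0.125). In those 4 libraries 0 of all genes tested were called lower and 1 was called higher. Between the single control and the single iECKO library without *Xist*, where no test is possible, the log2 differences were -1.12 for *Tgfb2*, -1.65 for *Tgfb3* and -1.91 for *Ltbp2*.

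Levels were compared between genes per kilobase of exon. In controls *Ltbp4* came first, at 3070 ± 89.8 per kb, followed by *Tgfb1* at 1883 ± 316, *Ltbp2* at 1530.0 ± 290 and *Tgfbr2* at 1350.0 ± 54.4. Among these, libraries of *Tgfb1* and *Ltbp2* overlapped, as did those of *Ltbp2* and *Tgfbr2*, whereas *Ltbp4* stood apart. *Ltbp3*, *Ltbp1*, *Tgfbr3* and *Tgfbr1* followed between 672 and 504 per kb, each overlapping its neighbour. *Tgfb2*, at 346 ± 58.0, and *Tgfb3*, at 261 ± 62.6, came last and overlapped each other. In iECKO iLECs the order began with *Ltbp4* at 2994 ± 375, *Tgfb1* at 2250 ± 51.4 and *Tgfbr2* at 1402 ± 112, all apart. *Ltbp2* stood at 547 ± 138 per kb, within a run with *Ltbp1*, *Tgfbr1*, *Ltbp3* and *Tgfbr3* whose libraries overlapped from neighbour to neighbour. *Tgfb2*, at 181 ± 6.35, and *Tgfb3*, at 103 ± 5.39, were again last and lay apart.

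Shares within a family do not depend on how the libraries were scaled. *Tgfb1* made up 69.9% to 82.5% of the summed ligand value per kb in controls and 88.5% to 89.3% in iECKO iLECs, with means of 75.3% ± 6.48 and 88.8% ± 0.41 (SD, n = 3). No library of one group lay within the range of the other (two-sided exact permutation p = 0.1, which is the lowest value possible with 3 libraries a group). The share of *Tgfb2* was 14.1% ± 3.27 in controls and 7.14% ± 0.32 in iECKO iLECs, and that of *Tgfb3* 10.6% ± 3.21 and 4.08% ± 0.16, each without overlap (exact permutation p = 0.1). The summed ligand value per kb itself overlapped, at 2490 ± 201 and 2534 ± 53.2 (exact permutation p = 0.8). Without division by length, where the long *Tgfb2* transcript weighs more, the sum was 6779 ± 226 in controls and 6183 ± 119 in iECKO iLECs and did not overlap (exact permutation p = 0.1).

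Receptor shares overlapped for all 3 genes, with *Tgfbr2* at 56.2% and 59.0%, *Tgfbr3* at 22.9% and 19.2%, and *Tgfbr1* at 21.0% and 21.8% in control and iECKO iLECs. Among the latent binders *Ltbp4* made up 51.8% ± 3.27 of the summed value per kb in controls and 65.7% ± 2.83 in iECKO iLECs (exact permutation p = 0.1, no overlap). *Ltbp2* made up 25.6% ± 3.72 and 11.9% ± 2.08 (exact permutation p = 0.1, no overlap). The shares of *Ltbp1* and *Ltbp3* overlapped. The summed binder value per kb was 5941 ± 257 in controls and 4559 ± 552 in iECKO iLECs, again without overlap (exact permutation p = 0.1). This sum includes *Ltbp2*, which does not bind latent TGF-β and went from a mean of 1530 to 547 per kb. A sum without *Ltbp2* was not computed.

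**Figure D3:**
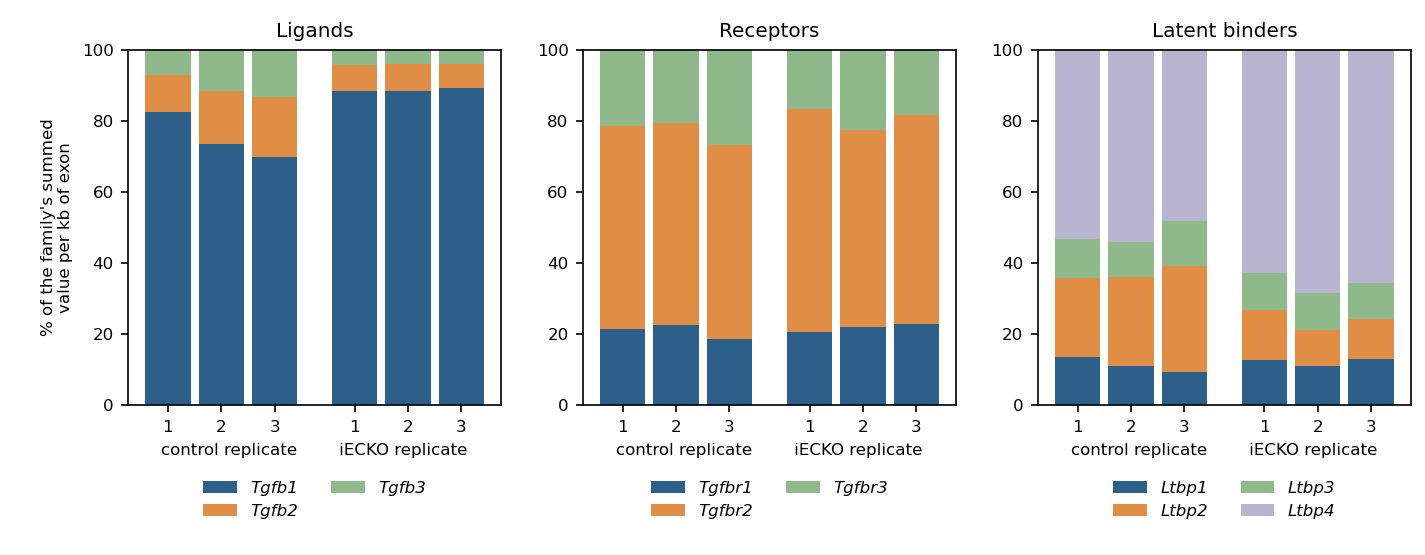
Share of each gene in the summed value per kb of exon of its family (vertical axis, %), as a stacked bar for each library, for the ligands, the receptors and the latent binders. *Tgfb1* takes 69.9% to 82.5% of the ligand bars in controls and 88.5% to 89.3% in iECKO libraries, and *Ltbp2* takes 22.3% to 29.7% and 10.2% to 14.2% of the binder bars.

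Of 7 ratios taken within a library, 4 did not overlap between the groups. Their numerators were the 4 genes whose own values did not overlap, so this count is not a separate result. The share of such ratios over all gene pairs was not computed. On the log2 scale the difference, iECKO minus control, was -1.19 for *Tgfb2* to *Tgfb1*, -1.57 for *Tgfb3* to *Tgfb1*, -1.45 for *Ltbp2* to *Ltbp4* and -0.47 for *Ltbp3* to *Ltbp4*, and each had an exact permutation p of 0.1. The ratios of *Tgfbr1* to *Tgfbr2* (-0.01), *Tgfbr3* to *Tgfbr2* (-0.33) and *Ltbp1* to *Ltbp4* (-0.23) overlapped.

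The summed fibroblast markers and the summed mural markers were also lower in iECKO libraries. All 12 fibroblast markers were listed and 11 were tested, of which 8 were lower and none higher, and their summed value was 80238 to 122939 in controls and 28283 to 40505 in iECKO libraries. None of the 12 was at 0 in all libraries, although *Lum* was at 0 in 3 and *Fap* in 1. Of 12 mural and smooth muscle markers, 8 were lower and none higher, with sums of 13885 to 20891 and 5736 to 7342. Control replicate 1 was the lowest control and iECKO replicate 1 the highest iECKO library for both sums and for *Tgfb2*, *Tgfb3* and *Ltbp2*. For *Tgfb2*, iECKO replicates 1 and 2 were nearly level (961 and 957). Of the iECKO libraries, replicate 1 also kept the most *Atp6ap2*, at 4219.8 against 2336 and 1982. The mural marker *Pdgfrb*, a growth factor receptor of pericytes, fell by 1.54 on the log2 scale and the fibroblast marker *Pdgfra* fell by 1.35, both chosen after their values were seen. Whether these cells account for any part of the lower *Tgfb2*, *Tgfb3* and *Ltbp2* values was not tested, and in such isolates fewer cells of a type and less RNA per cell cannot be told apart. The study checked purity by immunoblot, with VE-cadherin seen only in iLECs and αSMA and desmin seen in the non-endothelial fraction. At the RNA level, an unlike measure, *Acta2* (αSMA) and *Des* (desmin) had control means of 1205 and 879. The sums of mesothelial, epithelial, leukocyte and platelet markers overlapped between the groups. Of these lists, 1 gene passed the test, the epithelial marker *Scgb1a1* of club cells, which was higher in iECKO iLECs (log2 fold change 1.75, limma adjusted p = 0.0408).

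**Figure D4:**
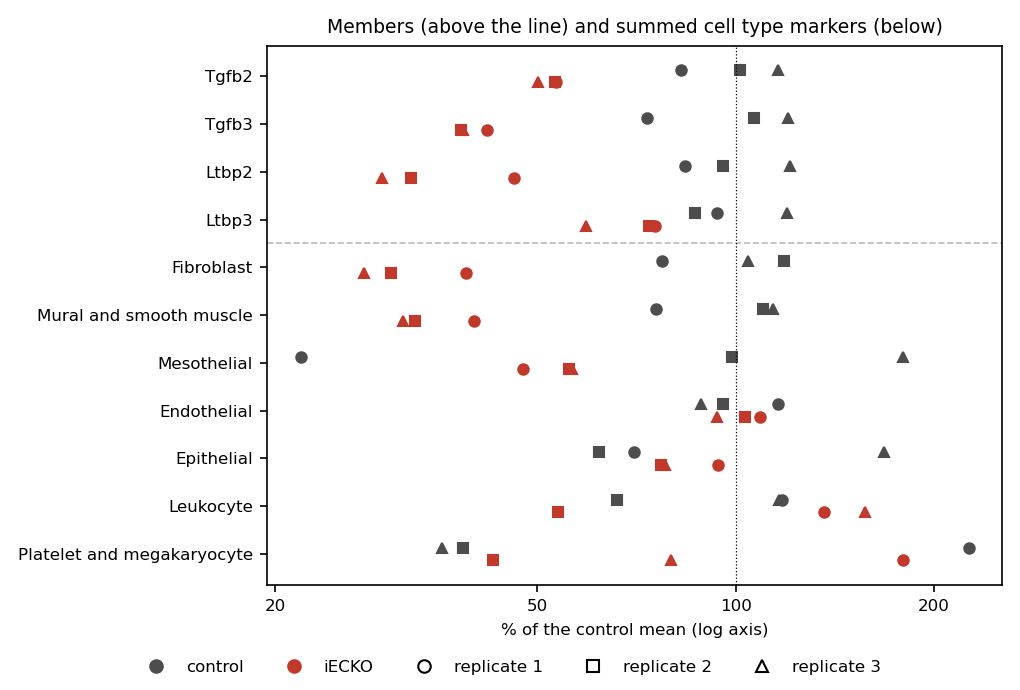
Value of *Tgfb2*, *Tgfb3*, *Ltbp2* and *Ltbp3* (above the dashed line) and summed marker value of 7 cell types (below it) in each library, as a percentage of the control mean on a log axis. The iECKO libraries lie at 27.2% to 39.0% for fibroblast and 31.3% to 40.1% for mural markers, whereas endothelial markers lie at 93.6% to 109%.

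The other genes of the pathway were read from 6 role lists with 70 genes, of which 69 were tested (*Itgb8* was not). These lists were also chosen with earlier results of these data known. In all, 17 were lower and 0 higher, where 4.97% and 3.28% of all genes tested were called. At an unadjusted limma p below 0.05 the counts were 22 and 3, where all genes gave 12.3% and 11.6%, and the median log2 fold change was -0.07. The count of lower genes changed with single libraries: it was 8 without control replicate 2 and 4 without control replicate 3, iECKO replicate 2 or iECKO replicate 3.

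Matrix partners of the latent complexes held 4 lower genes of 10 and none higher, with a median of -0.36. *Fbn1*, which encodes fibrillin-1, the microfibril protein that LTBPs attach to, went from 14180 ± 2035 to 7972 ± 1152 (SD, n = 3) and fell by 0.83 on the log2 scale (limma adjusted p = 0.0152). *Fbln1*, which encodes the matrix protein fibulin-1, fell by 1.50 (limma adjusted p = 0.0256). *Fn1*, which encodes fibronectin, fell by 0.84 (limma adjusted p = 0.0463), and *Adamts10*, a protease gene linked to fibrillin microfibrils, by 0.49 (limma adjusted p = 0.0498). Both calls lay close to the threshold of 0.05. By contrast, the study reported no obvious change in fibronectin staining of P7 retinas, and described that result as comparable with its iLECs.

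Activators of latent TGF-β held 3 lower genes of 14 tested and none higher, with a median of -0.00. *Thbs1*, which encodes the activator thrombospondin-1, had values of 41272, 50481 and 31742 in controls and 17495, 11798 and 14714 in iECKO iLECs. The groups lay far apart, and *Thbs1* fell by 1.48 on the log2 scale (SE 0.20, limma adjusted p = 0.0103). The matrix metalloproteinase genes *Mmp2* and *Mmp14* fell by 1.07 (limma adjusted p = 0.0215) and 0.54 (limma adjusted p = 0.0175). The tested integrin genes of the list did not pass, among them *Itgav* at -0.02 and *Itgb5* at -0.48 (limma adjusted p = 0.109). For *Itgb5* every iECKO library lay below every control.

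None of the 4 other receptors and none of the 11 signal transducers passed the test, with medians of 0.06 in each list. Inhibitors and feedback genes held 2 lower of 15 and none higher. *Smad7*, a feedback inhibitor of the type I receptor, fell from 4066 ± 355 to 2994 ± 325 (SD, n = 3), and its log2 fold change was -0.44 (limma adjusted p = 0.0423). *Vasn*, which encodes the TGF-β trap vasorin, fell from 3931 ± 24.5 to 2759 ± 320 (SD, n = 3), with a log2 fold change of -0.52 (limma adjusted p = 0.0201).

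Target genes known to rise on TGF-β held 8 lower of 15 and none higher, with a median of -0.92. The largest falls among the 8 were *Col1a1* (log2 fold change -1.62, limma adjusted p = 0.0106), *Col1a2* (-1.60, limma adjusted p = 0.00848), *Postn* (-1.57, limma adjusted p = 0.00731) and *Tagln* (-1.29, limma adjusted p = 0.0208). *Col1a1* and *Col1a2* encode collagen I, *Postn* the matrix protein periostin and *Tagln* the smooth muscle protein transgelin. Of the 15 targets, 4 also stand in the fibroblast or mural marker lists, and 3 of them are named here. *Ctgf*, a common readout of the pathway that was picked out after its values were seen, did not pass, with a log2 fold change of -0.26 (limma adjusted p = 0.576).

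**Figure D5:**
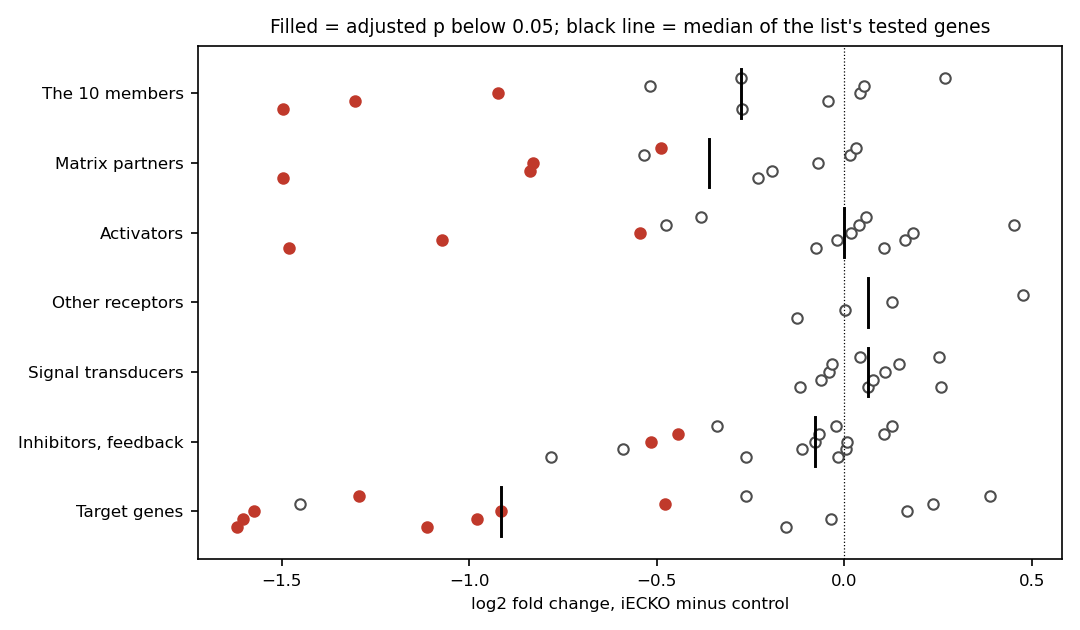
Log2 fold change, iECKO minus control (horizontal axis), of the 10 genes and of the 69 tested genes in 6 role lists, with filled points for a limma adjusted p below 0.05 and a black line at the median of each list. Filled points lie to the left of 0 in every list that has any, and the medians run from -0.92 for targets to 0.06 for transducers and other receptors.

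For the most abundant gene of each family per kb, the genes whose log2 values tracked it most closely over the 6 libraries were listed as a description, since the libraries share their scaling and group. *Tgfb1* was closest to *Pmp22* (Pearson r = 0.996), *Emcn* (0.996) and *Hspbap1* (0.993), of which *Emcn* encodes the endothelial sialoglycoprotein endomucin. *Tgfbr2* was closest to *Mvb12a* (0.988), *Aqp9* (0.975) and *Fpr2* (0.974), and *Ltbp4* to *Txn1* (0.979), *Plxna1* (0.978) and *Ucp1* (0.976). With 6 libraries and 14456 genes, 59 genes reached an r above 0.95 with *Tgfb1*, 9 with *Tgfbr2* and 6 with *Ltbp4*.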

How the data were processed

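iLECs from 3 control and 3 *Atp6ap2* iECKO preparations were sequenced with a TruSeq kit that does not mark strand. The authors aligned reads to mm10 and deposited 1 table of normalized signal, read estimates that are not whole and share a median ratio of 1.00 to the geometric mean in each library, although the labels call them raw counts. Between 21.1% and 40.9% of low values were whole multiples of the most frequent low value (tolerance 0.01), so reads were not recovered and no count model was used. Genes that reached a value of 10 in 3 or more libraries entered limma 3.58.1 (R 4.3.3) on log2(value + 1) with a mean-variance trend and Benjamini-Hochberg adjustment, after the fit was tested on simulated data. Fold changes on this scale understate those of low genes. Depth is unknown in reads, but the most frequent low value was 1.51 to 2.34, smaller in iECKO libraries. If that value stands for 1 read, a smaller one means a deeper library. Relative depth would then be 1 to 1.04 in controls and 1.25 to 1.55 in iECKO libraries, so depth and genotype cannot be told apart. Shares and ratios were compared with exact permutation tests (scipy 1.17.1). Exon lengths came from GENCODE on GRCm38 and promoters from RefSeq. Named genes were the 10 members, the deleted gene, from each role list those past the threshold (at most 4, by fold change), and the 3 closest in pattern to the top gene of each family. Other genes named from the marker and role lists were chosen after their values were seen. Members, role lists and marker lists were chosen with earlier results of these data known.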

Additional observations from a re-analysis of the deposited data

How the results depend on the processing

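The 10 genes were refitted under 17 alternatives (scaling, pseudocount, filter, covariates, prior, left-out libraries), and 162 of 170 values kept their direction and their side of the threshold. The signs that turned were *Tgfbr1*, at -0.015 in the libraries with *Xist* and between -0.033 and 0.081 with a library left out, and *Ltbp4*, between -0.12 and 0.061 with a library left out. Between the 2 libraries without *Xist*, *Ltbp4* (0.14) and *Tgfbr2* (-0.04) also had the opposite sign, with no test. The number of the 10 genes called lower was 0 in the libraries with *Xist* and 1 at an adjusted p below 0.01, and the number called higher ran from 0 to 1 with a library left out. Pathway genes called lower numbered 0 in the libraries with *Xist*, 4 without the trend, 2 at an adjusted p below 0.01 and 4 to 16 with a library left out. Those called higher numbered 2 after scaling to totals and 3 at an adjusted p below 0.1. Over all genes, 719 were called lower and 474 higher. In the libraries with *Xist* these counts were 0 and 1, without the trend 235 and 69, at an adjusted p below 0.01 82 and 8, at one below 0.1 1079 and 908, and with a library left out 176 to 659 and 28 to 461. With *Xist* as a covariate 248 were called higher. Fewer samples and the threshold itself set some of these counts, and for the others the cause was not tested.

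Deviations of libraries with the same replicate number correlated positively but weakly (0.25, 0.11 and 0.08). The mean was 0.15 for these pairs and -0.07 for the others. The numbers were not taken to pair the samples. With a replicate block 3 of the 10 genes were called lower and 0 higher, 20 and 1 of the pathway genes, and 838 and 670 of all genes. As a hint from the data, 5 of the 6 libraries correlated best with their own number. The estimated reads behind low genes limit precision, but the lowest value of the 10 genes was worth about 183 of the smallest steps.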
